A study of Homo sapiens with 9 samples.

Results

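The transcriptome of A673 control cells was described from 4 of the 9 arrays of the series. A673 is a human Ewing sarcoma cell line with a translocation that joins EWSR1 to FLI1 and makes the EWS/FLI fusion protein. The 4 arrays are those whose titles name a control treatment, 2 from cells held for 24 hours in 0.01% DMSO and 2 from cells transfected for 48 hours with 5 nM of a control siRNA. The other 5 arrays come from cells given trichostatin A, an inhibitor of histone deacetylases (100 nM for 24 hours, 2 arrays), the EZH2 siRNA no.2 (2 arrays) or another EZH2 siRNA (1 array), each siRNA at 5 nM for 48 hours, and enter only a last check and 1 alternative setting. All cells grew in RPMI medium with fetal calf serum and antibiotics. No array of wholly untreated cells was analysed here, so the baseline is that of cells with the solvent or with a control siRNA and its transfection reagent. The levels described here are of 1 established line, and in RNA from a whole culture fewer cells with a transcript and less of it per cell cannot be told apart.

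Ewing sarcoma is a tumour of bone and soft tissue in young people. The fusion keeps the activating part of EWSR1 and the DNA-binding ETS domain of FLI1, and it switches on genes such as NKX2-2 while holding down many genes of connective tissue. The cell of origin is debated between mesenchymal stem cells and neural crest, which is why markers of both lineages are of interest in its cell lines.

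RNA was measured on a human Affymetrix array, on which 22283 probe sets read the 3' ends of transcripts. The values are MAS5 signals, an intensity scale on which MAS5 weighs matched against mismatched probes. Probe sets differ in how strongly they bind, so a rank by signal orders hybridisation and not the number of transcripts, and no fold is drawn here between genes. Each of 11963 named genes was read through 1 probe set, the brightest on average over the 4 arrays. The titles call the replicates biological, without saying whether they were separate cultures, and a mean ± SD over the 4 arrays spans both control treatments. The number of arrays limits the precision.

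A ceiling for background was read on each array from 86 measured genes whose products belong to the nose, tongue, testis and eye, namely olfactory and taste receptors, sperm packaging proteins, and proteins of the lens and retina. Their median signals were 24.0 and 35.2 on DMSO replicates 1 and 2, and 18.1 and 28.1 on control siRNA replicates 1 and 2. The ceiling, the 95th percentile of these genes, stood at signals of 122 and 139 in DMSO and 95.01 and 121 with the control siRNA. Control siRNA replicate 1 had the lowest background and DMSO replicate 2 the highest. A gene is called present here where its signal lay above the ceiling on all 4 arrays, near background where it lay at or below it on all 4, and mixed otherwise. Since each ceiling comes from the same array as the signal, a call does not depend on how arrays were scaled to each other.

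Of the 11963 genes 6477 were present (54.1%), 4138 were near background (34.6%) and 1348 were mixed. The median gene had a mean signal of 211. Of the 86 background genes themselves 2 were present, the olfactory receptors OR1F1 and OR1D2 at mean signals of 143 and 130.1. A further list of 53 genes of differentiated liver, pancreas, stomach, pituitary, thyroid, adrenal gland, kidney, lung, breast, prostate, skin and blood did not enter the ceiling, and 39 of them lay near background, 10 were mixed and 4 were present. Albumin (ALB) averaged 31.1 and insulin (INS) 4.14, whereas the prostatic acid phosphatase ACP3 averaged 747, the liver cytochrome CYP3A4 219, the lung surfactant protein SFTPC 207 and the kidney water channel AQP2 152. A present call at a low signal is therefore weaker evidence of a transcript than one at a high signal: 589 present genes had a mean at or below that of CYP3A4, and 5888 lay above it.

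**Figure D1:**
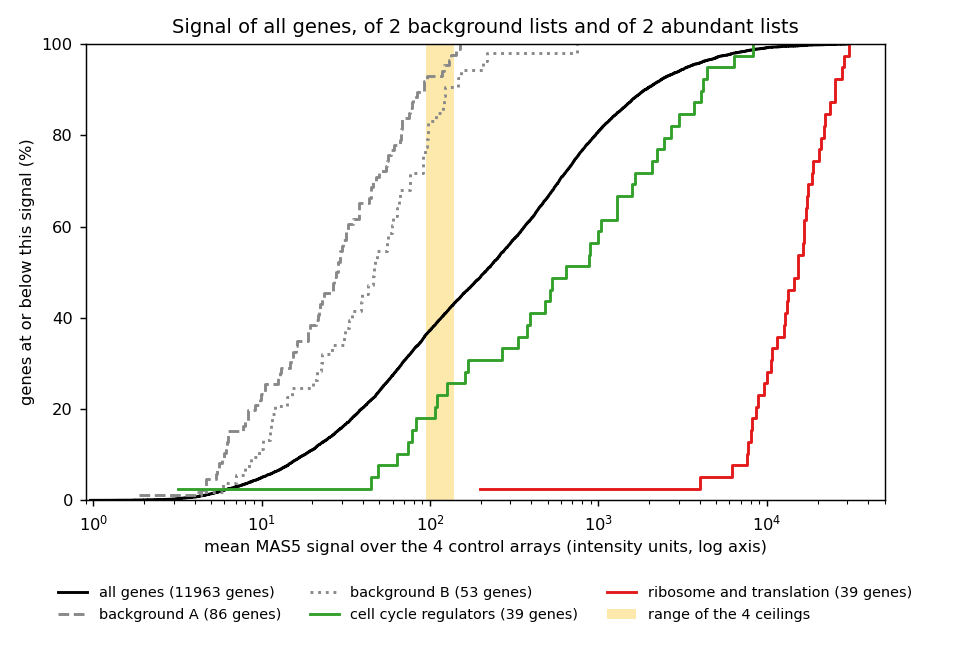
Cumulative share of genes (%) against mean MAS5 signal over the 4 control arrays (log axis) for all 11963 genes, both background lists, the cell cycle regulators and the ribosome list, with the range of the 4 ceilings shaded. Nearly all of background A lies left of or within the shaded band, 54.1% of all genes were present, and the ribosome list runs far to the right except for RPLP2, at a signal of 198.

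The highest signals belonged to the machinery of protein synthesis, glycolysis and the cytoskeleton. TPT1, the translationally controlled tumour protein, had the top mean, with signals of 35989.6 and 25715 in DMSO and 30952 and 30320.00 with the control siRNA. It was followed by the glycolytic enzyme GAPDH, with 28816 and 29759 in DMSO and 33781 and 28563 with the control siRNA. DMSO replicate 1 gave the highest TPT1 signal and control siRNA replicate 1 the highest GAPDH signal.

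The 30 genes of highest mean signal ran from 30744 for TPT1 to 17678 for the lactate dehydrogenase LDHA. In order of mean signal after GAPDH came the cyclophilin PPIA, the actin ACTB, the elongation factor EEF1A1, the tubulin TUBA1B, RPS10, the ubiquitin ligase HUWE1, the tubulins TUBA1C and TUBB, RPS19, RPS23, RPL37A, RPL41, the ubiquitin gene UBB, RPS15, RPL8, RPL23A, RPL7, the actin-severing cofilin CFL1, the chromatin protein HMGB1, RPS18, RPS3, RPL30, LDHB, the G protein subunit GNAS, CD99, RPS16, the RNA-binding protein CAPRIN1 and LDHA. Ribosomal proteins made up 13 of them and tubulins 3. The highest array exceeded the lowest by 1.07 to 1.55 times.

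These 30 genes carried 7.57% and 6.84% of the summed signal of all genes in DMSO and 7.81% and 6.99% with the control siRNA. For 25 of the 30 the probe set has a name with _x_ or _s_, which Affymetrix gives to probes that match more than 1 transcript, so ribosomal proteins and tubulins with near-identical copies are uncertain here. HUWE1 illustrates this, since its bright probe set averaged 27337 while its other probe sets averaged 1967, 50.5 and 31.8. By the median over probe sets TPT1 averaged 17340. CD99, the surface protein used to diagnose Ewing sarcoma, was the only gene of the 30 on the Ewing marker list.

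**Figure D2:**
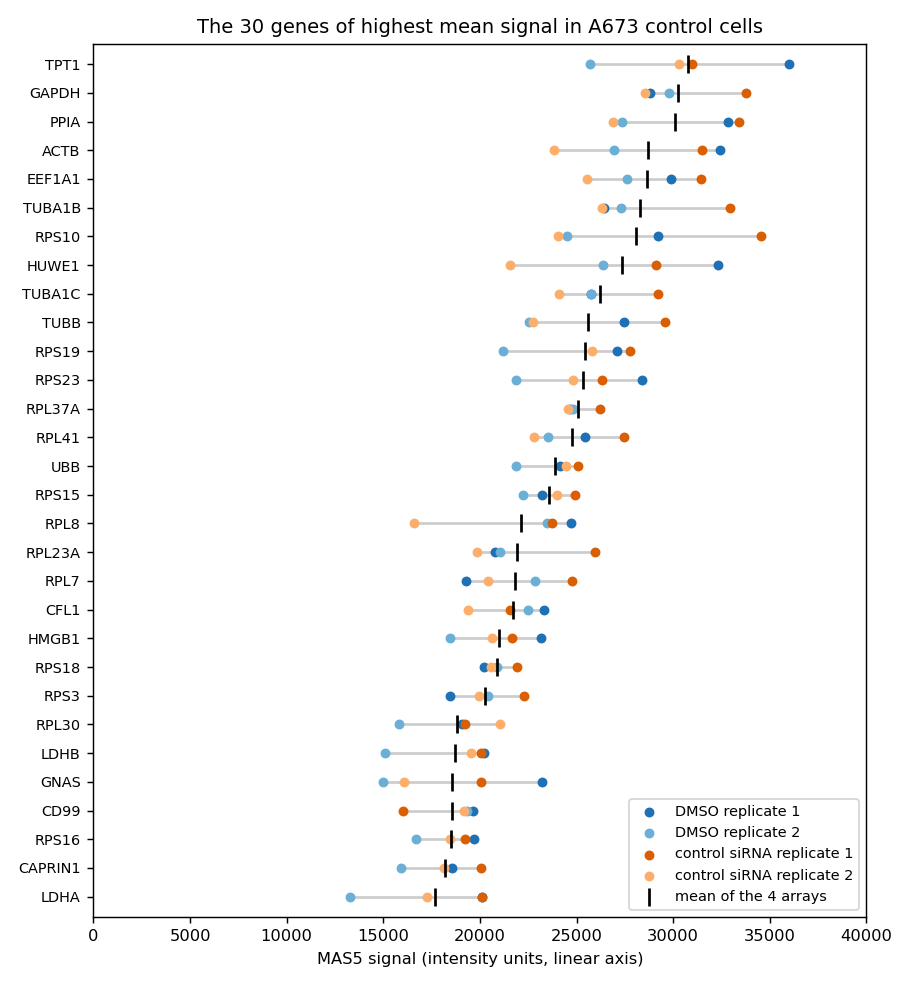
MAS5 signal (linear axis) of the 30 genes of highest mean signal on each of the 4 control arrays, with a bar at the mean. Signals run from 13291 for LDHA on DMSO replicate 2 to 35989.6 for TPT1 on DMSO replicate 1, and no gene varies by more than 1.55 times between arrays.

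All 39 measured genes of the ribosome and translation list were present (against 54.1% of all genes). Their median signal was 15363, against 211 over all genes. They took 6.23% and 5.84% of the summed signal in DMSO and 6.504% and 5.88% with the control siRNA. RPLP2, a stalk protein of the large subunit, was the lowest, with signals of 181 and 189 in DMSO and 175 and 245 with the control siRNA. The next lowest, RPL14, averaged 4019.9. Listed genes without a probe set that names only them were not measured here, so their absence from the ranking is no sign of a low signal.

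Transcripts of the translation machinery typically begin with a C that is followed by an unbroken run of C and T, the terminal oligopyrimidine tract through which growth signals control their translation. RefSeq promoters (GRCh38.p14, 250 bases before to 50 bases from the annotated start) were searched on the transcribed strand for a C at the start followed by at least 4 bases that are C or T. Of the 30 genes 25 had a promoter in the table and 11 of these (44.0%) began so, as did 24 of the 34 matched genes of the ribosome list (70.6%), against 1102 of 27195 promoters in the whole table (4.05%). Among the 5449 present genes with a promoter the share was 6.07%. Outside the ribosome list and the ribosomal proteins, 1 of 14 matched genes of the 30 began so, and this was TUBB. The match describes the annotated start and was not tested against starts used in A673 cells. The 60 bases before and 20 bases from the start are shown for 3 of these abundant genes, with the pyrimidine run at the start in capitals, and for 3 lineage genes described further on, which lack it and are printed in lower case throughout.
TPT1: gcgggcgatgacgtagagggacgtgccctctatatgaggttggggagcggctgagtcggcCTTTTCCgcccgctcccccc
EEF1A1: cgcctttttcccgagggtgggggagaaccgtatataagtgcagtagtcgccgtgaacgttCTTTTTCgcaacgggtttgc
RPS23: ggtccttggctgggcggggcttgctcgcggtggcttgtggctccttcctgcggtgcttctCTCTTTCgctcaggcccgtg
CD99: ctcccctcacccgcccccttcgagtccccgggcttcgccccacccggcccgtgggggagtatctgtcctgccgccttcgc
NKX2-2: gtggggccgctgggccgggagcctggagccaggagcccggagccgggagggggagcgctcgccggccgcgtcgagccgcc
UCHL1: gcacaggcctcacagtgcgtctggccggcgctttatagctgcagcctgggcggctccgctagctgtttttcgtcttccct
The windows lie on the minus strand at chr13:45341164-45341243 for TPT1, chr6:73521013-73521092 for EEF1A1, chr5:82278335-82278414 for RPS23 and chr20:21522670-21522749 for NKX2-2, and on the plus strand at chrX:2691235-2691314 for CD99 and chr4:41256868-41256947 for UCHL1. In TPT1, EEF1A1 and RPS23 the run is 7 bases long.

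Glycolysis was read at high signal through most of its steps. Of 23 measured genes 18 were present (against 54.1% of all genes), 3 were mixed and 2 were near background. After GAPDH, LDHB and LDHA came ALDOA, the muscle-type aldolase, with a mean of 12863 ± 1734, and ENO1, the ubiquitous enolase, with 12198 ± 554 (SD, n = 4). The phosphoglycerate kinase PGK1 varied least, with signals of 6961 and 7143 in DMSO and 7122 and 6748 with the control siRNA. The members that were mixed or near background are forms of other tissues or uptake proteins: the glucose transporter SLC2A3, the testis dehydrogenase LDHC and the liver pyruvate kinase PKLR were mixed, and the muscle forms PGAM2 and ENO3 averaged 6.36 and 95.2. Among the present genes of the list the brain-type aldolase ALDOC varied most, at 2309 and 561 in DMSO and 337 and 719 with the control siRNA. DMSO replicate 1 was the high array for ALDOC, with the other 3 far below it.

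Genes of dividing cells were read on every array. Of 39 measured cell cycle regulators 29 were present (against 54.1% of all genes), 4 mixed and 6 near background, with a median signal of 641. CCND1, the cyclin that opens the G1 phase, led with signals of 4096 and 8113 in DMSO and 7186 and 13926 with the control siRNA. Replicate 2 was above replicate 1 under both treatments, and the highest array exceeded the lowest by 3.40 times. The replication helicase subunit MCM2 averaged 6409.6 ± 661, the kinase CDK4 4398 ± 404, the mitotic kinase CDK1 4161 ± 791 and the replication clamp PCNA 4038 ± 543 (SD, n = 4 each). The proliferation antigen MKI67 stood at 1258 and 2013 in DMSO and 1511 and 1800.1 with the control siRNA, with all 4 of its probe sets present.

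Among the inhibitors and partners the calls divided. CDKN1B (p27) averaged 997 ± 289.8 and CDKN1A (p21) 513 ± 154, both present, and RB1, the pocket protein of the G1 checkpoint, 641 ± 79.5. CDKN2A, which encodes p16 and ARF, was mixed, with signals of 105 and 152 in DMSO and 87.7 and 83.7 with the control siRNA. Only on DMSO replicate 2 did the CDKN2A signal pass the ceiling, and its other probe sets averaged 41.9 and 32.1. The neighbouring inhibitor CDKN2B averaged 3.19 on its only probe set and was near background, and MTAP, a methionine salvage enzyme encoded beside them, was mixed at 127. Also near background were the cyclin CCND2 at 63.8 and the kinase CDK6 at 49.4, while CCND3 was present at 897.

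Polycomb complexes place and read repressive histone marks, and the study followed their methyltransferase EZH2. Of 21 measured genes 18 were present (against 54.1% of all genes), 2 mixed and 1 near background. The histone chaperones RBBP4 and RBBP7, which other complexes share, had the highest signals at 5315 ± 1313 and 3388 ± 449.6. The core of the repressive complex 2 was read at means of 1361 ± 237 for the histone-binding subunit EED, 1058 ± 85.9 for the scaffold SUZ12 and 1039 ± 141 for EZH2 (SD, n = 4 each). EED was present by 1 of its 2 probe sets, and the other averaged 49.7. EZH2 itself had signals of 990.1 and 861 in DMSO and 1130.1 and 1172 with the control siRNA, so it stood far above the ceiling on every control array. Its paralogue EZH1 averaged 175. The chromodomain protein CBX2 was near background at 18.0, PHC3 and CBX7 were mixed, and RING1, a ubiquitin ligase of complex 1, was present at 689 ± 34.3.

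The other genes that the study followed were read at low signal. NGFR, the low-affinity neurotrophin receptor, had signals of 152 and 274 in DMSO and 356 and 330.1 with the control siRNA, TERT, the catalytic subunit of telomerase, 215 and 187 in DMSO and 195 and 281 with the control siRNA, and the growth cone protein GAP43 144 and 309.8 in DMSO and 192 and 212 with the control siRNA. All were present, but near the level of CYP3A4. The epithelial membrane protein EMP1 was mixed at 113 and 243 in DMSO and 175 and 62.7 with the control siRNA, with DMSO replicate 2 and control siRNA replicate 1 above the ceiling. GFAP, an astrocyte filament protein, was near background at 23.8 and 17.7 in DMSO and 19.5 and 9.79 with the control siRNA. With the ceiling taken from the list of differentiated tissues only 1 of the 6 genes was present.

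Of 33 measured marker genes of Ewing sarcoma 28 were present (against 54.1% of all genes), 3 mixed and 2 near background. The list was chosen with earlier results of these data known, so the count is no test of the label of the line. CD99 ranked at place 27 of 11963 with signals of 19651 and 19341 in DMSO and 16039.6 and 19177 with the control siRNA. NKX2-2, a homeobox repressor that the fusion switches on, ranked at 542 with 3593 and 2669 in DMSO and 2859 and 5631 with the control siRNA. For CD99 control siRNA replicate 1 was the lowest array, and for NKX2-2 control siRNA replicate 2 was the highest. CAV1, the coat protein of caveolae, was steady at 15516 and 14624 in DMSO and 15589 and 14550.4 with the control siRNA.

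The remaining members cover surface proteins, signalling enzymes and hormones. STEAP1, a metalloreductase of the cell surface, averaged 7666 ± 1689, the cytokine receptor kinase JAK1 7458 ± 1002 and the protein kinase C isoform PRKCB 3652 ± 428. FCGRT, the neonatal Fc receptor, averaged 3457 ± 572, PPP1R1A, an inhibitor of protein phosphatase 1, 2705 ± 502, and the glutathione transferase GSTM4 2526 ± 136 (SD, n = 4 each). The Wnt antagonist DKK2 stood lower, at 1802 and 1219 in DMSO and 1049.5 and 764 with the control siRNA, and DMSO replicate 1 was its highest array. GLI1, an effector of Hedgehog signalling that the fusion is known to activate, was present at 259.9 ± 37.5. The peptide hormone CCK, the potassium channel subunit KCNAB3 and the paired-box factor PAX7 were mixed, with PAX7 between 26.3 on DMSO replicate 2 and 289.7 on control siRNA replicate 2. The melanoma antigen PRAME and the uridine phosphorylase UPP1 were near background at 73.6 and 31.3.

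Both partners of the fusion were read. EWSR1, an RNA-binding protein, had signals of 1144 and 1573 in DMSO and 1647 and 1306 with the control siRNA, and its other probe sets averaged 532 and 6.83. FLI1 had signals of 813 and 757 in DMSO and 1157 and 1135 with the control siRNA, with all 3 of its probe sets present and the control siRNA arrays above both DMSO arrays. Whether these probe sets read the fusion transcript, the normal transcripts or both was not tested.

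Genes that the fusion is known to hold down were read in part. Of 24 measured, 12 were present, a share near the 54.1% of all genes, 7 mixed and 5 near background, with a median signal of 189 against 211 for all genes. The highest were the adhesion protein VCL (vinculin) at 6586 ± 1132, the matrix protein TNC (tenascin C) at 2124 ± 357 and the collagen chain COL5A2 at 1521 ± 518 (SD, n = 4 each). The type 2 receptor of transforming growth factor beta, TGFBR2, averaged 907 ± 113. COL5A2 was present with both of its probe sets, whereas VCL, TNC and TGFBR2 were each present by 1 of 2, and their other probe sets averaged 16.5, 133 and 59.1. IGFBP3, which binds insulin-like growth factors, lay near background at 51.1, as did the forkhead factor FOXO1 at 69.5 and the collagen chain COL6A3 at 60.5. The hyaluronan receptor CD44 was mixed at 89.0 and had no present probe set among its 8, and the thrombospondin THBS1 was mixed at 103 with none among its 5.

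Some mesenchymal markers were read at high signal. Of 36 measured genes 25 were present (69.4%, against 54.1% of all genes), 5 mixed and 6 near background. With only probe sets without _x_ or _s_ the present share of the list was near that of all genes under the same setting. VIM, the filament protein vimentin, had signals of 18271 and 15083 in DMSO and 19501 and 15456 with the control siRNA, and ANXA2, a membrane-binding annexin, 15476 and 14278 in DMSO and 16496 and 12412 with the control siRNA. The replicate 1 arrays were the higher for both genes. Fibronectin (FN1) averaged 12190.00 ± 1828 with 5 of its 6 probe sets present, the galectin LGALS1 8385 ± 979, the collagen chain COL1A2 6099 ± 1521 and the cadherin CDH11 5515 ± 1231 (SD, n = 4 each).

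The same list held low members. The receptor PDGFRA averaged 16.5, the proteoglycan LUM 38.1, the matrix protein POSTN 40.5 and the fibroblast protease FAP 8.78, all near background. Collagen chain COL1A1 was present at 336 with 2 of its 4 probe sets. Regulators of the mesenchymal state differed as well, with TWIST1 present at 656 ± 116, ZEB2 at 235 ± 64.2, SNAI1 and SNAI2 mixed, and ZEB1 near background at 51.9.

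Epithelial markers were mostly near background, with 23 of 29 measured genes there (against 34.6% of all genes). A further 3 were mixed and 3 present (10.3%, against 54.1% of all genes). The adhesion protein CDH1 (E-cadherin) averaged 14.5, CDH3 9.31 and EPCAM 21.4. Of 9 keratins 7 lay near background. KRT18 stood apart from them, with signals of 7323 and 5138 in DMSO and 7017 and 4625 with the control siRNA, and replicate 1 was the higher under both treatments. Its partner KRT8 was read at 281 and 223 in DMSO and 228 and 178 with the control siRNA, and the plakophilin PKP3 averaged 148. KRT18 has a single probe set, whose _x_ name marks probes shared with other transcripts. With the ceiling from the differentiated tissues 1 of the 29 genes was present.

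Neuronal and neuroendocrine markers were read in part, some among the brightest genes of the array. Of 44 measured genes 20 were present (45.5%, against 54.1% of all genes), 5 mixed and 19 near background. UCHL1, a neuronal ubiquitin hydrolase whose start is shown above, had signals of 12391 and 11358 in DMSO and 9036 and 3909 with the control siRNA. Control siRNA replicate 2 was its lowest array, and the highest exceeded the lowest by 3.17 times. The gastrin-releasing peptide GRP had 8633 and 7429 in DMSO and 8657 and 11449 with the control siRNA, and the neuronal tubulin TUBB3 8412 and 8024 in DMSO and 8965 and 6962 with the control siRNA. TUBB3 was steady, and GRP was highest on control siRNA replicate 2.

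The synaptic calcium sensor SYT1 averaged 2264 ± 269.8, the neuronal enolase ENO2 2179.7 ± 545 and neuropeptide Y (NPY) 1644 ± 219 (SD, n = 4 each). The neurofilament genes NEFL, NEFM and NEFH were present at 914 ± 459, 557 ± 271 and 548 ± 269, with a highest array 3.60, 2.95 and 4.82 times the lowest. Other members of the same lineage lay near background: the growth cone protein STMN2 averaged 17.3, the dendrite protein MAP2 59.0, the migration protein DCX 45.4 and the adhesion protein L1CAM 56.6. The enzymes of transmitter synthesis DDC, TH, GAD1 and DBH lay near background at 16.3, 11.6, 11.6 and 7.56. With the ceiling from the differentiated tissues 13 of the 44 were present in place of 20.

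Of 25 measured neural crest genes 8 were present (against 54.1% of all genes), 5 mixed and 12 near background. The factor SOX9, which acts in crest and cartilage, had signals of 1650.2 and 1788 in DMSO and 1113 and 1861 with the control siRNA, and the receptor kinase RET 1148 and 1099 in DMSO and 1594 and 1821 with the control siRNA. Both were present with every probe set they have. The homeobox gene MSX1 averaged 642 ± 94.9 and TFAP2A, an early crest factor, 373 ± 151 by 1 of its 3 probe sets. SOX10, a marker of migrating crest and of glia, lay near background at 76.4 and 9.93 in DMSO and 15.2 and 31.9 with the control siRNA, as did TFAP2B at 35.4, FOXD1 at 21.5 and FOXD3 at 13.8. MYCN was mixed, at 426 on control siRNA replicate 2 and at or below 106 on the other 3 arrays.

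Glial and melanocytic genes were near background for the greater part. Of 15 glial genes 3 were present (against 54.1% of all genes). The myelin enzyme CNP led at 687 ± 39.9. The glutamate transporter SLC1A3 averaged 259 ± 78.7 and the folate enzyme ALDH1L1 245 ± 132. MBP, a myelin protein, was mixed, while the calcium-binding protein S100B at 5.97 and the myelin proteins PMP2 at 17.2 and MAG at 52.1 lay near background. Of 9 melanocytic genes 8 lay near background (against 34.6% of all genes), among them TYR at 77.3, TYRP1 at 28.0 and PMEL at 65.2. The receptor MC1R was mixed.

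Markers of the remaining tissues were mostly near background, where 34.6% of all genes lay. Few were present, against 54.1% of all genes. Endothelial genes gave 2 present of 23, the coreceptor ENG at 266 ± 77.0 and the selectin SELP at 205 ± 58.2, while CDH5, VWF and KDR averaged 18.9, 24.8 and 25.7. Skeletal muscle genes gave 1 present of 30, the myosin light chain MYL4 at 176 ± 52.2. The myogenic regulators MYOD1, MYOG, MYF5 and MYF6 averaged 10.9, 38.1, 27.4 and 39.5, and 6 further muscle genes were mixed.

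Of 18 bone and cartilage genes 0 were present (against 54.1% of all genes) and 5 were mixed. The bone factor RUNX2 averaged 47.7, and the bone matrix proteins IBSP and SPP1 22.1 and 20.9. Of 12 adipocyte genes 0 were present and 1, the lipase LIPE, was mixed, with the adipogenic factor PPARG at 5.16. These small counts changed when an array was left out. A present call over fewer arrays asks for less, so counts tend to rise by construction. Without 1 control array the muscle count ran from 1 to 3, reaching 3 without control siRNA replicate 2 and 2 without either DMSO array. The bone count was 1 without DMSO replicate 2 or control siRNA replicate 2.

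Blood lineages were likewise mostly near background, and few of their genes were present, against 54.1% of all genes. PTPRC (CD45), the common leukocyte antigen, averaged 22.9 and the T cell antigens CD2 and CD3D 66.4 and 42.4. Of 25 T and B cell genes 2 were present, the B cell receptor component CD79A at 538 and 343 in DMSO and 368 and 339.99 with the control siRNA and the B cell factor PAX5 at 325 and 312 in DMSO and 319 and 466 with the control siRNA. Neither had an array near the ceiling, but PAX5 was present by 1 of its 2 probe sets. Of 24 myeloid and erythroid genes 1 was present, the erythropoietin receptor EPOR at 1105 and 1930.1 in DMSO and 1205 and 1960.05 with the control siRNA, and 2 were present without DMSO replicate 1. The EPOR signal comes from a probe set named for a family of sequences, and its other probe sets averaged 275, 264, 208 and 20.5. The monocyte antigen CD14 averaged 13.7 and the lysozyme gene LYZ 4.16.

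**Figure D3:**
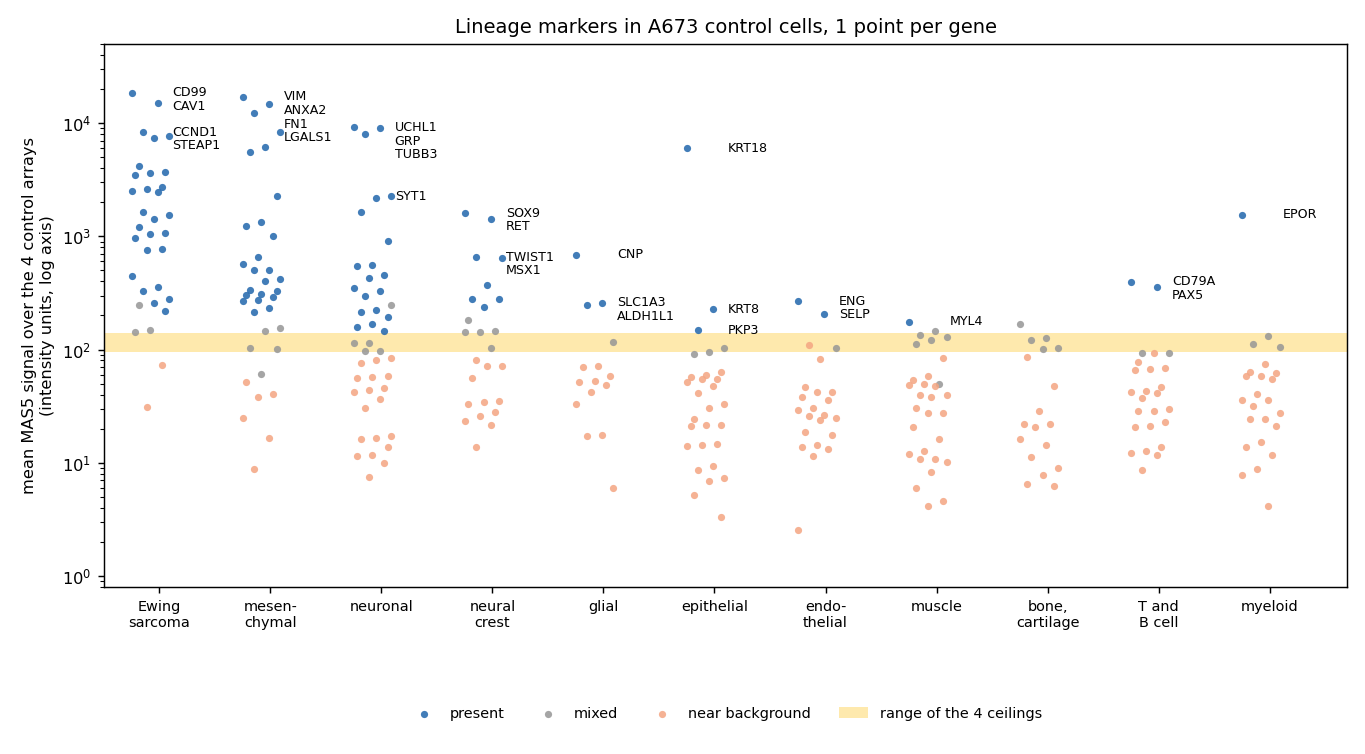
Mean MAS5 signal over the 4 control arrays (log axis) of every measured gene of 11 lineage lists, coloured by its call, with the highest present genes named beside their points. CD99, VIM and UCHL1 lead their lists with means of 18552, 17078 and 9173, while endothelial, muscle and bone genes stay at or below that of ENG, 266.

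Antigen presentation to T cells runs through class I molecules on most cells and class II molecules on immune cells. All 6 measured class I genes were present (against 54.1% of all genes). The light chain B2M had signals of 14271 and 16518 in DMSO and 13548 and 14407 with the control siRNA, and the heavy chains HLA-C and HLA-B averaged 4824 ± 541 and 3188 ± 495. The peptide transporter subunit TAP1 was present at 269.9 ± 70.7 and TAP2 was mixed at 141 ± 44.1. Of 12 class II genes 6 lay near background (against 34.6% of all genes), among them the chaperone CD74 at 50.3 and HLA-DRA at 15.9. A further 3 were mixed, including their regulator CIITA at 126, and 3 were present at 214 (HLA-DPB1), 186 (HLA-DMB) and 133 (HLA-DRB1). Class I genes share long stretches of sequence, so their probe sets may read each other.

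Genes of early development and germ cells were read in part. Of 14 pluripotency and stem cell genes 6 were present (against 54.1% of all genes). MYC had signals of 2695 and 2637 in DMSO and 2449 and 2242 with the control siRNA. SOX2 had 894 and 745 in DMSO and 804 and 689.96 with the control siRNA, and was present by 1 of its 3 probe sets. The receptor kinase KIT had 394 and 525 in DMSO and 277 and 502 with the control siRNA. NANOG averaged 3.80, LIN28A 32.5 and KLF4 40.7, all near background. The count was 3 with the ceiling from the differentiated tissues. Of 23 cancer-germline genes, which are normally silent outside testis, 21 lay near background (against 34.6% of all genes). They included MAGEA1 at 8.31, MAGEA4 at 24.5 and MAGEA6 at 15.6. The others were SSX1 and SSX3, family members with closely similar sequences. SSX1 had 883 and 813 in DMSO and 576 and 722 with the control siRNA, and SSX3 435 and 409 in DMSO and 341 and 375 with the control siRNA. SSX1 was present by 1 of its 2 probe sets, a probe set with an _x_ name, and the other averaged 8.86.

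**Figure D4:**
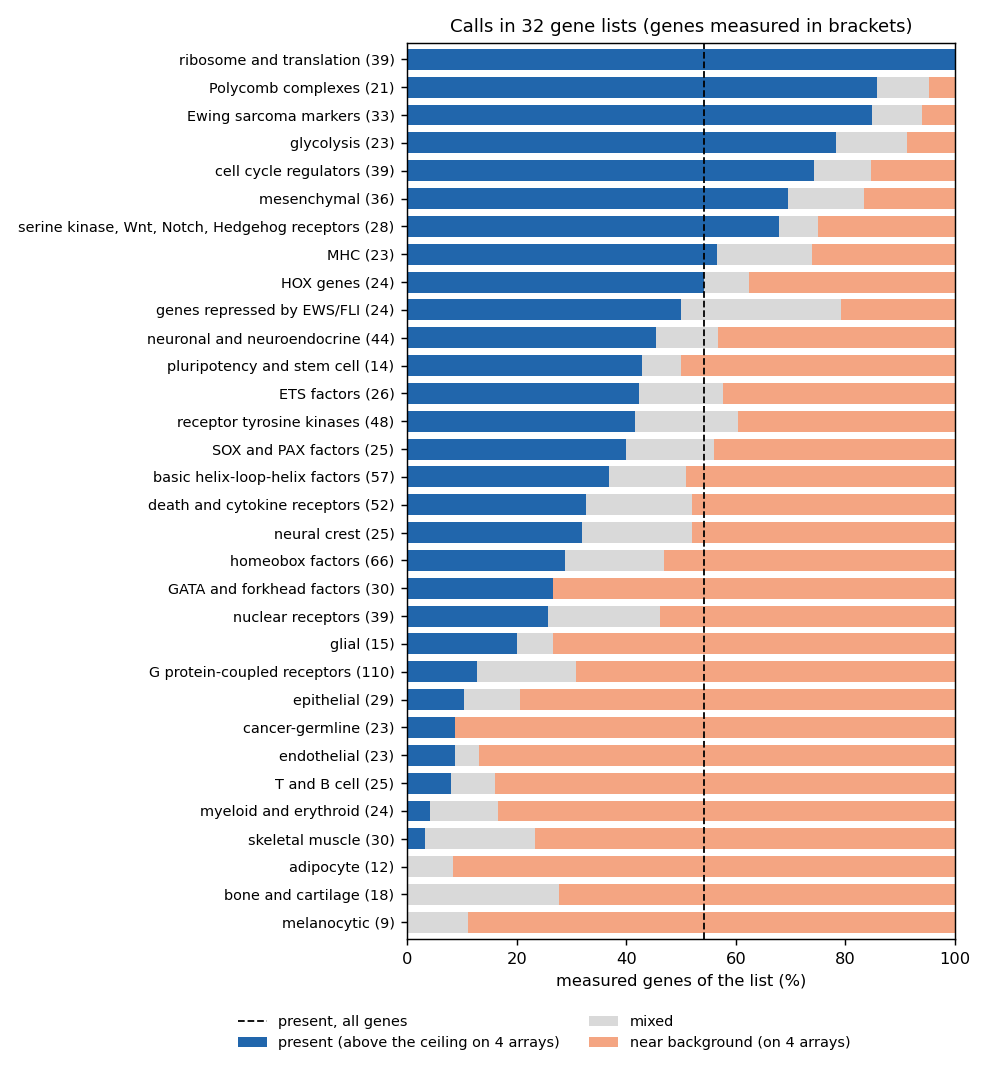
Share of measured genes (%) called present, mixed or near background in 32 lists, with the present share of all genes, 54.1%, as a dashed line. Ribosome, Polycomb, Ewing and glycolysis genes stand at the top and adipocyte, bone and melanocytic genes at the bottom with 0 present.

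Over 7 families of transcription factors 92 of 267 measured genes were present (34.5%, against 54.1% of all genes), 38 mixed and 137 near background, with a median signal of 79.8 against 211 for all genes. Only 21 had a mean over 1000. Basic helix-loop-helix factors held many of the highest, with 21 of 57 present. TCF12, a partner of tissue-specific factors, had signals of 5294 and 5155 in DMSO and 4215 and 5637 with the control siRNA, and ID2, which blocks such factors, 4219 and 3418 in DMSO and 4163 and 4761 with the control siRNA. They were followed by the hypoxia factor HIF1A at 3710.2 ± 640.4, TCF4 at 2780.5 ± 162 and MYC (SD, n = 4 each). TCF4 was present with all 7 of its probe sets, but TCF12 by 1 of 2, and its other probe set averaged 146. The partners of MYC were read as well, with MAX at 1547 ± 138 and its antagonist MXI1 at 1276 ± 76.4. The neuronal inducers NEUROD2 and NEUROG1 at 85.5 and 37.6 and the intestinal and hair-cell factor ATOH1 at 12.5 were near background, as was MXD1 at 4.74.

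Homeobox factors outside the HOX clusters gave 19 present of 66 (against 54.1% of all genes). NKX2-2 led them, followed by DLX5, a factor of crest and bone, at 1549 and 1296 in DMSO and 935 and 1544 with the control siRNA, and the repressor TGIF1 at 961 and 1024 in DMSO and 1175 and 1603 with the control siRNA. MEIS1, a cofactor of HOX proteins, averaged 833 ± 218 and DLX2 828 ± 346. The sensory neuron factors ISL1, POU4F1 and POU4F2 were present at 545 ± 189.95, 461 ± 65.8 and 443 ± 191. Near background were NKX2-8 at 29.2, NKX6-1 at 9.52, MSX2 at 23.3 and DLX4 at 63.3.

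HOX genes, which mark position along the body axis, gave 13 present of 24 measured (54.2%), a share near that of all genes. Present were 4 of 9 HOXB genes, 4 of 7 HOXC genes and 5 of 7 HOXD genes, led by HOXB7 at 1105 ± 109, HOXC6 at 1101 ± 307 and HOXC10 at 1036 ± 338 (SD, n = 4 each). HOXA2 was near background at 11.9 and HOXB8 at 9.86. No other HOXA gene was measured, so the counts do not describe the HOXA cluster.

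SOX and PAX factors gave 10 present of 25 (against 54.1% of all genes). SOX4 had signals of 1391 and 1702 in DMSO and 1843 and 1537 with the control siRNA, and with SOX9 it led the list. The eye and brain factor PAX6 averaged 1029 ± 308 and the neural factor SOX11 686 ± 101. PAX8 averaged 722 ± 82.9, but only 1 of its 8 probe sets was present and the others averaged 14.9 to 120.0, so its call rests on that probe set. PAX3 and PAX7, which bind a similar sequence, were mixed.

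Of 26 ETS factors, the family of the fusion's DNA-binding part, 11 were present (against 54.1% of all genes). ELK3 averaged 1273 ± 399, FLI1 965 ± 209.8, ELF2 717 ± 168 and ETV5 609.8 ± 124, whereas ERG, the closest relative of FLI1, lay near background at 31.5 and 52.2 in DMSO and 43.3 and 25.0 with the control siRNA. ETS1 averaged 71.0 and ETV4 36.3, both near background, while ETV1 was present at 281 ± 53.1 with 4 of its 5 probe sets. ELK3 was present by 1 of its 2 probe sets, and the other averaged 161. FOXM1, a driver of mitotic genes, led the GATA and forkhead list at 2855 and 2237 in DMSO and 2598 and 2395 with the control siRNA. Of that list 8 of 30 were present and 22 near background, against 54.1% and 34.6% of all genes. GATA1, GATA4 and GATA6 lay near background at 62.5, 22.4 and 19.5.

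Nuclear receptors, which respond to steroids, retinoids and related ligands, gave 10 present of 39 (25.6%, against 54.1% of all genes). The retinoid partner RXRA averaged 689.9 ± 74.0, the orphan receptors NR2F6 and ESRRA 616 ± 103 and 588 ± 26.0, and the glucocorticoid receptor NR3C1 418 ± 117 with all 4 of its probe sets present (SD, n = 4 each). The oestrogen receptor ESR1 was mixed at 93.2 with no present probe set among 9, the vitamin D receptor VDR was mixed at 63.1, and the progesterone receptor PGR lay near background at 9.11. By the median over probe sets, 5 of the 39 were present.

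Over 4 lists of cell surface receptors 70 of 238 measured genes were present (29.4%, against 54.1% of all genes), 41 mixed and 127 near background. Of 48 receptor tyrosine kinases 20 were present. RET had the highest mean, followed by the collagen receptor DDR2 at 1583 and 1141 in DMSO and 847 and 1041 with the control siRNA and the Wnt coreceptor RYK at 894 and 1096 in DMSO and 875 and 1115 with the control siRNA. The ephrin receptors EPHB4 and EPHA2 averaged 759.98 ± 116 and 759.8 ± 334, and the fibroblast growth factor receptor FGFR1 683 ± 278 with 3 of its 6 probe sets. The insulin-like growth factor receptor IGF1R, long studied as a target in this tumour, was present at 296 and 299 in DMSO and 227 and 459 with the control siRNA. KIT and the neuroblastoma kinase ALK averaged 424 ± 114 and 346 ± 153. EGFR lay near background at 104 and 135 in DMSO and 85.3 and 108 with the control siRNA, as did ERBB3 at 71.2, PDGFRA at 16.5 and FLT3 at 68.7.

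Receptors of developmental pathways had the highest present share of the receptor lists. Of 28 serine kinase, Wnt, Notch and Hedgehog receptors 19 were present (67.9%, against 54.1% of all genes). NOTCH2 had signals of 1599.6 and 1645 in DMSO and 1419 and 2459 with the control siRNA, and the Wnt receptors FZD4 and FZD1 averaged 1604 ± 329.9 and 1449 ± 102. The Hedgehog receptor PTCH1 averaged 742 ± 232 and its effector partner SMO 264 ± 40.2. PTCH1 was present by 1 of its 3 probe sets. For transforming growth factor beta, TGFBR2 was present while TGFBR1 lay near background at 44.8. Both coreceptors of Wnt, LRP5 and LRP6, were present, at 688 ± 93.7 and 508 ± 91.8 (SD, n = 4 each).

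Of 52 death and cytokine receptors 17 were present (against 54.1% of all genes). The interferon gamma receptor chain IFNGR2 led at 2309 and 1946 in DMSO and 1412 and 2457 with the control siRNA, and its partner IFNGR1 averaged 397 ± 105. The death receptors TNFRSF10B, TNFRSF1A and FAS averaged 1365 ± 241, 973 ± 167 and 752 ± 116, each present with every probe set, while the decoy receptor TNFRSF10C lay near background at 31.9. CD40, a costimulatory receptor of immune cells, was present at 759.8 and 850.1 in DMSO and 615 and 971 with the control siRNA with 3 of its 4 probe sets. The shared chain IL6ST averaged 989 ± 220.5 with 2 of its 5 probe sets present, and the lowest averaged 104. IL6R, the chain specific for interleukin 6, lay near background at 20.6.

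G protein-coupled receptors had the lowest present share among the receptor lists, 14 of 110 (12.7%, against 54.1% of all genes). A further 20 were mixed and 76 near background. The prostaglandin receptor PTGER3 had signals of 1795 and 1755 in DMSO and 1755 and 1047 with the control siRNA, with 5 of its 10 probe sets present, and the neuropeptide Y receptor NPY1R 1419 and 1984 in DMSO and 1214 and 1599 with the control siRNA. The thrombin receptor F2R averaged 966 ± 103, the lysophosphatidic acid receptor LPAR1 829 ± 126 and the adrenergic receptor ADRB3 622 ± 186 (SD, n = 4 each). With only the 2 control siRNA arrays 22 were present, and with all 4 arrays the count is 14. A present call over 2 arrays asks for less than 1 over 4. The chemokine receptor CXCR4 was mixed, at 85.9 and 205 in DMSO and 113 and 129.9 with the control siRNA, with DMSO replicate 1 alone below the ceiling.

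**Figure D5:**
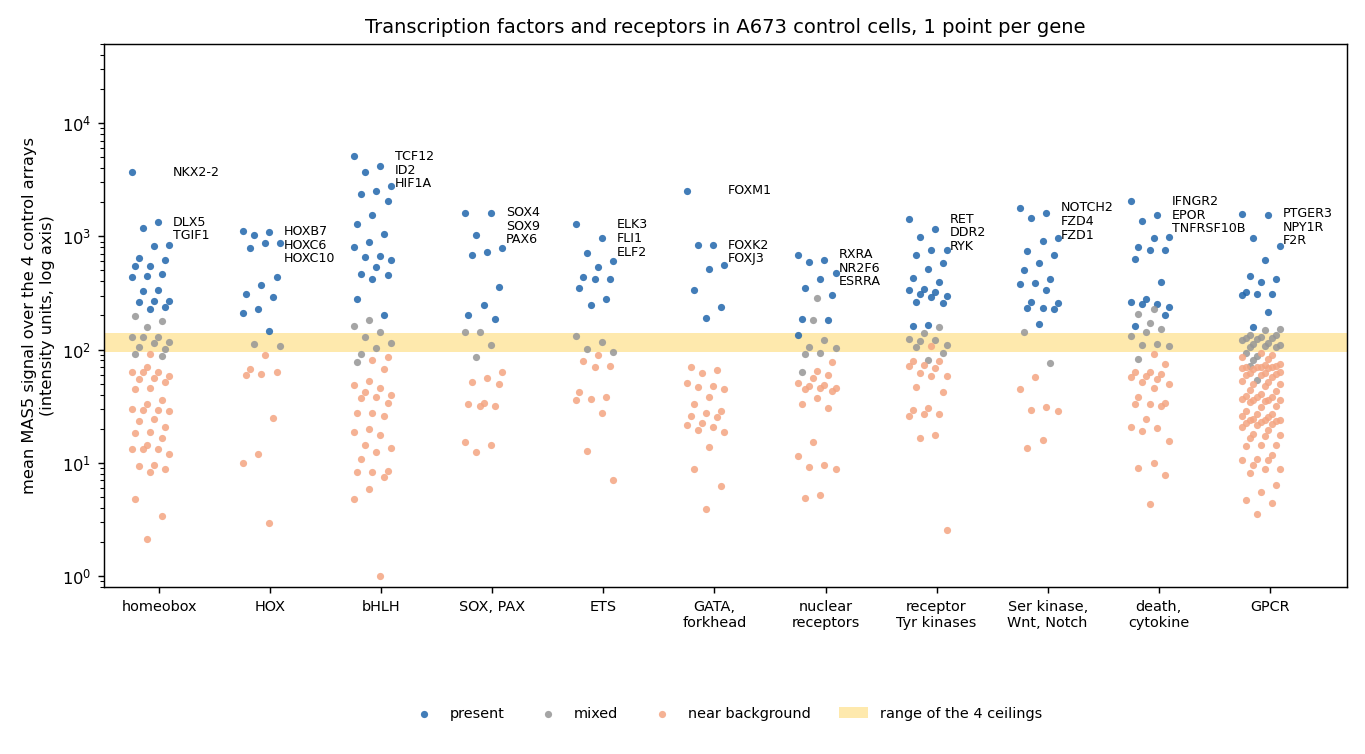
Mean MAS5 signal over the 4 control arrays (log axis) of every measured gene of 7 transcription factor and 4 receptor lists, coloured by its call, with the highest present genes named beside their points. Most points of every list except the serine kinase, Wnt and Notch receptors and the HOX genes lie in or under the shaded range of the ceilings, and the highest factors, TCF12 and ID2, average 5075 and 4140.1.

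Ligands and receptors of some hormone systems were read together and others were not. For neuropeptide Y the hormone NPY was present along with the receptors NPY1R and NPY5R, NPY5R at 422 ± 116, and NPY2R lay near background at 59.7. For insulin-like growth factor 1 both the hormone, IGF1 at 358 ± 84.2, and IGF1R were present. For the gastrin-releasing peptide the hormone ranked at place 127 of 11963, while its receptor GRPR was mixed at 37.7 and 141 in DMSO and 126 and 127 with the control siRNA and the related receptor NMBR lay near background at 38.2. For cholecystokinin the hormone CCK was mixed and both receptors, CCKAR and CCKBR, lay near background at 36.9 and 62.1.

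The 4 control arrays gave similar levels for most genes. Over the 6477 present genes the median difference between arrays was 0.26 on the log2 scale between the DMSO arrays, 0.31 between the control siRNA arrays, 0.27 in both pairs that share a replicate number, and 0.28 and 0.32 in the pairs that share neither. The values of pairs with the same and with different treatments thus overlap. The highest array exceeded the lowest by 1.504 times in the median present gene and by less than 2 times in 86.2% of them. Of the 6477 genes 3559 have 1 probe set, and of the 2918 with several all were present for 1492 and some were not for 1426.

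Among present genes with a mean signal over 500 the steadiest were the ubiquitin ligase TRIM32, the signalling scaffold SHOC2, the RNA-binding protein RALY, the ligase scaffold CUL5, the protease subunit APH1A, the tetraspanin CD81, the deubiquitinase USP1, COXFA4, the noncoding RNA TUG1 and RPS4X. TRIM32 had signals of 895 and 926 in DMSO and 912 and 917 with the control siRNA. RPS4X, which was among the brightest genes, had 16991 and 17888 in DMSO and 17592 and 17585 with the control siRNA. Their highest array exceeded the lowest by 1.03 to 1.05 times.

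The genes that varied most included metallothioneins, which bind zinc and copper. MT1X had signals of 4254 and 1490.4 with the control siRNA and 569 and 619.7 in DMSO, and MT1E 3012 and 907 with the control siRNA and 250.1 and 430.1 in DMSO. Control siRNA replicate 1 was the highest array for MT1HL1, MT1E, MT1X, MT1H and MT1F and control siRNA replicate 2 the next, and these genes have closely similar sequences. PTPRO, a receptor phosphatase, split by replicate number, at 1229 with the control siRNA and 2034 in DMSO for replicate 1, and at 11189.5 and 9715 for replicate 2. It was present by 1 of its 2 probe sets, and the other averaged 54.5. MMP1, a collagenase, was high on DMSO replicate 2 alone, at 6365, with 1026 to 1324 on the others. The remaining genes of the 10 were ALDOC, the neural stem cell filament NES at 603 and 969 in DMSO and 310.1 and 162 with the control siRNA, and NOTCH2NLA at 499 and 813 in DMSO and 241 and 1398 with the control siRNA. What these arrays share beside their treatment and number was not tested.

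The calls held over most of the series. Of the 6477 genes present on the 4 control arrays, 6062 (93.6%) also lay above the ceiling of each of the other 5 arrays, and 7 lay at or below it on all 5. Of the 4138 genes near background on the control arrays, 3887 (93.9%) stayed there on all 5 others, and 0 were above the ceiling on all 5. These 5 arrays carry treatments, so the counts describe how far the baseline extends to them and are no comparison of treatments.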

How the data were processed

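RNA of A673 cells was measured on 9 human Affymetrix arrays, and the 4 control arrays were used, grouped by their titles. The authors deposited intensity values from MAS5, per the submitters' processing notes. Its version and scaling are not given in the sources used here, but all arrays share a trimmed mean of 500.1 to 500.2, and the table holds no detection calls. No 2 of the 4 control arrays shared an identical signal on any probe set, and the other arrays were not checked for this. As a check of RNA quality, the 3' over 5' ratio on the control arrays was 1.03 to 1.29 (ACTB) and 0.968 to 1.00 (GAPDH).

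Of 22283 probe sets, 68 are controls, 19065 name 1 gene, 1043 several and 2107 none, by GEO's platform annotation with symbols updated through RefSeq. Those with 1 gene gave 11963 genes, each read by its probe set of highest mean over the 4 arrays. A gene was present, mixed or near background against each array's ceiling, the 95th percentile of 86 background genes. On simulated signals the calls were checked before use. Silent genes were drawn there from the background genes themselves, so the check could not test calls of other silent genes. Values are levels without a contrast, so no test was run. Promoters came from RefSeq (GRCh38.p14). Python 3.11.15, numpy 2.4.6, pandas 2.3.3 and matplotlib 3.10.9 were used.

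The members and the 35 gene lists were chosen with earlier results of these data known. Named were the 30 genes of highest mean, present list members from the highest signal, near-background members in list order, mixed members where at most 3, the 10 steadiest and 10 most variable present genes with a mean over 500, and the study's and fusion genes whatever their values. Receptors named beside their hormones and some further list members were chosen after their values were seen. Genes that mark sex were not ranked for spread, and a study gene was not analysed here. Alternatives were ceilings at the 90th and 99th percentile or from the list of differentiated tissues, the median over probe sets, only probe sets without _x_ or _s_, 3 of 4 arrays, quantile normalization, the geometric mean, each array left out, each treatment alone and all 9 arrays.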

Additional observations from a re-analysis of the deposited data

How the results depend on the processing

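The count of present genes ran from 5553 to 6924 over 12 alternatives, that of genes near background from 3415 to 5182 over 13, and that of present list members from 303 to 402 over 12 (363 as reported). Of the 30 genes of highest signal 24 to 30 remained among the 30 under 9 alternatives, and the mean pairwise difference between arrays was 0.27 to 0.30 on the log2 scale under 6, and 0.40 over all genes. Using only probe sets without _x_ or _s_ measures fewer genes, which lowers counts by construction: 3765 of 8369 genes and 193 of 699 list members were present, and 6 of the 30 remained. Single lists then gave 10 of 14 (ribosome), 7 of 12 (glycolysis), 17 of 23 (Ewing), 6 of 15 (repressed by EWS/FLI), 10 of 21 (mesenchymal), 0 of 18 (epithelial), 13 of 31 (neuronal), 4 of 18 (neural crest), 1 of 15 (endothelial), 0 of 21 (muscle), 1 of 19 (T and B cell), 4 of 13 (MHC), 3 of 8 (pluripotency), 0 of 16 (cancer-germline), 8 of 35 (receptor tyrosine kinases), 6 of 29 (nuclear receptors), 6 of 20 (SOX and PAX), 2 of 22 (GATA and forkhead), 12 of 56 (homeobox), 12 of 43 (basic helix-loop-helix) and 9 of 13 (Polycomb). With the ceiling from the differentiated tissues the lists gave 1 (epithelial), 13 (neuronal), 1 (glial), 0 (endothelial), 0 (muscle), 3 (pluripotency) and 1 (study genes). With the 90th percentile they gave 1 (melanocytic), 2 (muscle) and 1 (bone), with the 99th 0 (muscle), with the median over probe sets 5 (nuclear receptors), and with 3 of 4 arrays 5 (muscle), 2 (bone) and 2 (myeloid). Leaving out each array gave 1 to 3 (muscle), 0 to 1 (bone) and 1 to 2 (myeloid). The control siRNA arrays alone gave 3 (muscle), 1 (bone), 3 (myeloid) and 22 (G protein-coupled receptors), the DMSO arrays alone 3 (muscle) and 1 (bone), and all 9 arrays 2 (study genes). A lower ceiling or fewer arrays loosens the present call, and a higher ceiling or more arrays tightens it. Counts under those settings tend to move that way by construction. What else moved them was not tested. The other 380 counts of single lists stayed within a factor of 1.5 of those reported. Of 40 single signals that were followed (the 30 highest genes, the study and fusion genes, CD99, NKX2-2 and CDKN2A), 11 were lower by more than the SD over the arrays with the median over probe sets, by which TPT1 averaged 17340, HUWE1 1009, RPL37A 1035, FLI1 572 and EWSR1 532. Of the 18 that have a probe set without _x_ or _s_, 7 were lower by more than the SD with those alone, among them TUBB at 8560, RPL37A at 155 and GNAS at 81.6. Both shifts run downward by construction, since the brightest probe set is the one reported. The other followed signals moved by less than the SD under every alternative run on them. Signals near the ceiling limit the calls of low genes. No paired analysis was possible because no groups were tested against each other. Pairs of arrays with the same replicate number are described by their differences only.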
